A study of Macrostomum lignano with 16 samples.

Results

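In whole adult Macrostomum lignano, a marine flatworm, 106 of 76437 assembled transcripts formed a set with lower levels in worms kept in groups of 8 than in worms of any other social setting. The set was selected on the measured levels themselves. A transcript belonged to it when its mean over all libraries was at least 4 CPM, when all 4 octet libraries lay below all 12 others, when its octet mean was at most 0.5 times its paired mean, and when its paired mean was above 0.6 times its isolated mean. CPM is a transcript's estimated read count scaled to a library total of 1000000, which was taken without RNA815_80.1, the transcript that alone held 9.17% to 21.5% of the reads of a library.

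The study asked how a worm's transcriptome differs with its social surroundings, using 16 libraries in 4 groups of 4. Every worm was an adult of strain DV1, 66 to 69 days old, fed diatoms in artificial sea water at 20°C and kept for 64 days in its setting. Octet worms lived in groups of 8. Joined worms lived alone and were placed 2 together for the last 24 h. Paired worms lived 2 together throughout, and isolated worms lived alone throughout. Each library was made from a pool of whole worms and held between 7302416 and 10112451 estimated reads. How many worms went into a pool is not given in the sources used here. The p-values below therefore measure the spread between pools.

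M. lignano is a simultaneous hermaphrodite: each adult has testes and ovaries at once and mates reciprocally. Sex allocation, the division of reproductive resources between the male and the female function, is plastic in this species, and worms in larger groups are known for a larger investment in testes, where sperm of more partners compete. A whole-worm sample mixes all tissues, so that fewer cells of a type and less RNA per cell cannot be told apart in these values. The transcript identifiers are assembly numbers, in which a suffix after a dot separates transcripts that share a number. No gene names, sequences or tissue markers were used here, so the 106 transcripts are described by identifier.

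The 4 conditions of the selection narrowed the table step by step. Of the transcripts, 23787 reached the mean level, 880 of those kept all octet libraries below all others, and 117 of those had an octet mean no more than 0.5 times the paired mean. The last condition removed 11 transcripts and left 106, all of which passed the filter on low counts and were among the 40265 transcripts tested. The most extreme of the 11 removed was RNA815_6699, with means of 0.396 CPM in octet, 28.1 in joined, 7.65 in paired and 43.7 in isolated worms. At the level limit, RNA815_34700.1 (mean 4.04 CPM) and RNA815_21466 (4.08 CPM) were just inside, and RNA815_7778 (3.97 CPM) and RNA815_20268 (3.82 CPM) just outside. At the octet to paired limit, RNA815_11093.6 and RNA815_12734 (both 0.499) were just inside, and RNA815_12116.1 (0.50005) and RNA815_8262 (0.50027) just outside. At the paired to isolated limit, RNA815_356.1 (0.613) and RNA815_7101 (0.619) were just inside, and RNA815_8966 (0.599) and RNA815_16507.2 (0.571) just outside.

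Membership depended on how libraries were scaled. TMM scaling, which sets the bulk of transcripts level between libraries, raised the octet libraries by 0.19 on the log2 scale relative to the others, and under it 53 of the 106 still met every condition. Of the 53 that did not, 37 failed the ratio limit, with an octet mean above 0.5 times the paired mean. An octet library overlapped another group in 20. Of the 22 members named by rule, 10 met every condition under TMM scaling: RNA815_16203, RNA815_6111, RNA815_1920, RNA815_9620.1, RNA815_31.3, RNA815_2945.1, RNA815_356.1, RNA815_358.1, RNA815_148.1 and RNA815_21129.1. The 12 others described below, among them RNA815_3206.3, RNA815_2351 and RNA815_9710.2, were members on the CPM scale of the selection but not under TMM scaling. In the comparison of joined with the other groups, the median log2 difference joined minus isolated was 0.31 in the 53 that remained and 0.30 in the 53 that did not, and joined minus paired was 0.53 and 0.41. Levels below are in CPM as defined above, and log2 differences are from limma-voom with TMM scaling.

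Most of the set was scarce. The median of the mean levels was 8.50 CPM (range 4.04 to 568), with 63 transcripts under 10 CPM, 16 between 10 and 20 CPM and 27 at or above 20 CPM. The lowest estimated count of any member in any library was 4, and the median over members of their lowest count was 16.7. The octet mean was 0.431 times the paired mean at the median (range 0.211 to 0.499), 0.361 times the isolated mean and 0.285 times the joined mean. On the log2 scale the median over members was -1.05 for octet minus paired, -1.29 for octet minus isolated and -1.56 for octet minus joined, while the medians over all tested transcripts were 0.00, -0.03 and -0.04. These differences were fixed by the selection and are given without a test.

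The gap between the octet libraries and the others was narrow for many members. The lowest of the 12 other libraries was 1.13 times the highest octet library at the median, less than 1.1 times in 42 members and more than 1.5 times in 8. The closest libraries were the same few throughout. The library nearest to the octet values was paired replicate 4 in 45 members, isolated replicate 3 in 32 and paired replicate 3 in 16. The highest octet library was replicate 3 in 66 members and replicate 2 in 33.

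**Figure D1:**
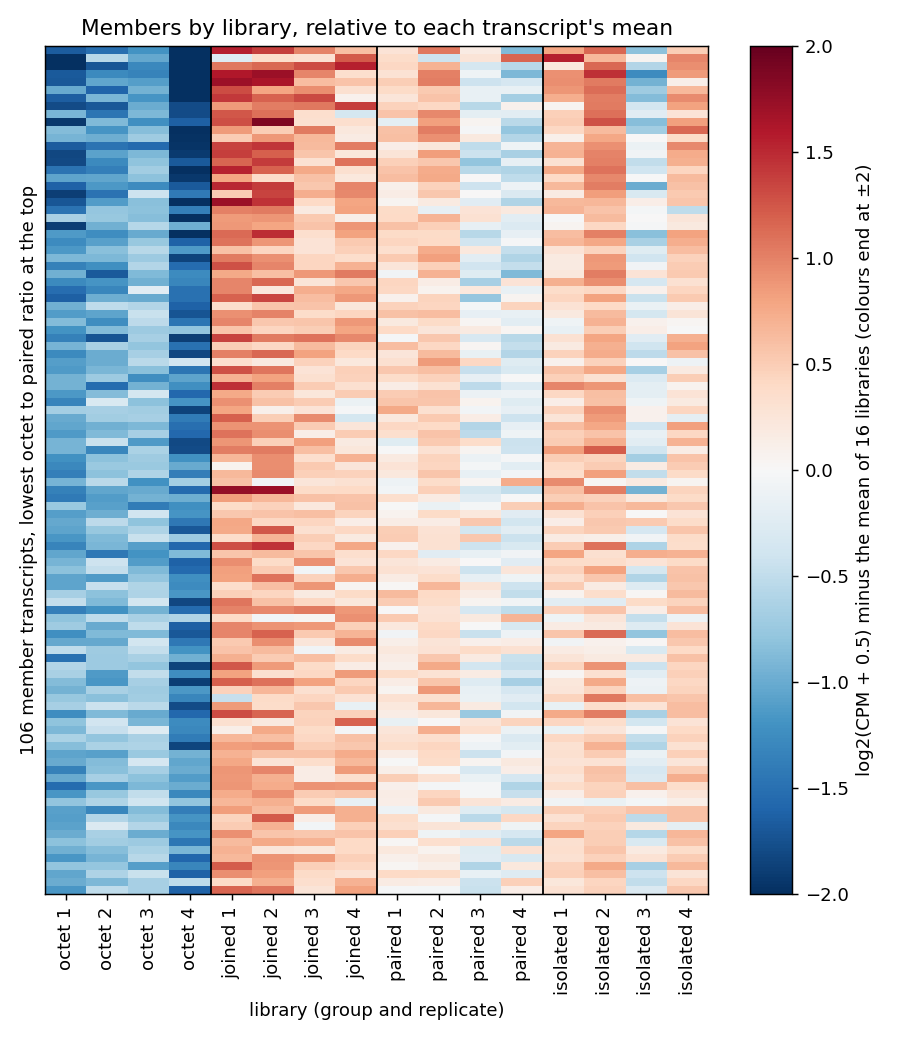
Each line down the page is 1 of the 106 transcripts, ordered by octet to paired ratio, and each column is 1 library; colour gives log2(CPM + 0.5) minus the transcript's mean over 16 libraries. The 4 octet columns are blue, joined replicates 1 and 2 hold the most dark red, and paired replicate 4 and isolated replicate 3 are the palest or bluest columns outside the octet group.

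Lowered only in groups of 8 described the set in part. The paired mean was below the isolated mean in 92 of the 106 transcripts and above it in 14, with a median paired to isolated ratio of 0.841 (range 0.613 to 1.46). The median log2 difference paired minus isolated was -0.22 over the members and -0.01 over all tested transcripts. Since the selection bounded this ratio from below, it is given as a description. The 4 group means ran joined, isolated, paired, octet from high to low in 85 members. They ran joined, paired, isolated, octet in 12 members, and isolated, joined, paired, octet in 6. Joined worms had the highest mean in 97 of 106. The selection put octet last in every order and set no upper limit on joined values. The shares of these orders over all tested transcripts are not given here, so the counts are a description only. The summed level of the 106 transcripts was 900 ± 188 CPM in octet, 3850 ± 492 in joined, 2176 ± 477 in paired and 2884 ± 664 in isolated libraries (mean ± SD, n = 4 each).

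The most abundant member was RNA815_31.3. It had 180.1, 139, 291 and 125 CPM in the octet libraries, 1178, 953, 978 and 906 CPM in the joined, 454, 669, 372 and 313 CPM in the paired and 571, 797, 396 and 762 CPM in the isolated libraries. The joined libraries were all above every other library, whereas the paired and isolated libraries overlapped. RNA815_3206.3 had 53.9, 46.1, 63.0 and 43.8 CPM in the octet, 205, 179, 209 and 189 CPM in the joined, 107, 131, 97.5 and 90.1 CPM in the paired and 162, 160.0, 170.4 and 174 CPM in the isolated libraries. Here no group overlapped another, and the isolated libraries were the most even (166.7 ± 6.55 CPM, SD, n = 4). RNA815_2351 had 31.6, 35.3, 42.5 and 28.0 CPM in the octet, 164, 160.4, 171 and 152 CPM in the joined, 82.9, 100.2, 64.9 and 57.9 CPM in the paired and 114, 123, 90.0 and 126 CPM in the isolated libraries. Its joined libraries lay above all others, and its paired and isolated libraries overlapped.

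RNA815_356.1 had the widest gap between the octet and the other libraries. It stood at 27.8, 31.6, 30.0 and 22.5 CPM in the octet, 229, 242, 138 and 182 CPM in the joined, 97.9, 105, 62.6 and 83.7 CPM in the paired and 143, 169, 82.2 and 175 CPM in the isolated libraries. Its lowest library outside the octet group, paired replicate 3, was 1.98 times its highest octet library, and its joined and isolated libraries overlapped. RNA815_52.1 averaged 19.3 ± 3.93 CPM in octet, 81.3 ± 25.3 in joined, 41.6 ± 11.3 in paired and 64.2 ± 26.1 in isolated worms (SD, n = 4 each). Among these abundant members RNA815_2945.1 differed in order, since isolated worms had the highest mean. It had 101, 79.6, 63.5 and 72.0 CPM in the octet, 220.0, 232, 196 and 253 CPM in the joined, 168, 153, 165 and 237 CPM in the paired and 280.4, 251, 265 and 247 CPM in the isolated libraries. Its isolated replicate 3 was not low among the isolated libraries, unlike in RNA815_31.3 or RNA815_356.1.

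**Figure D2:**
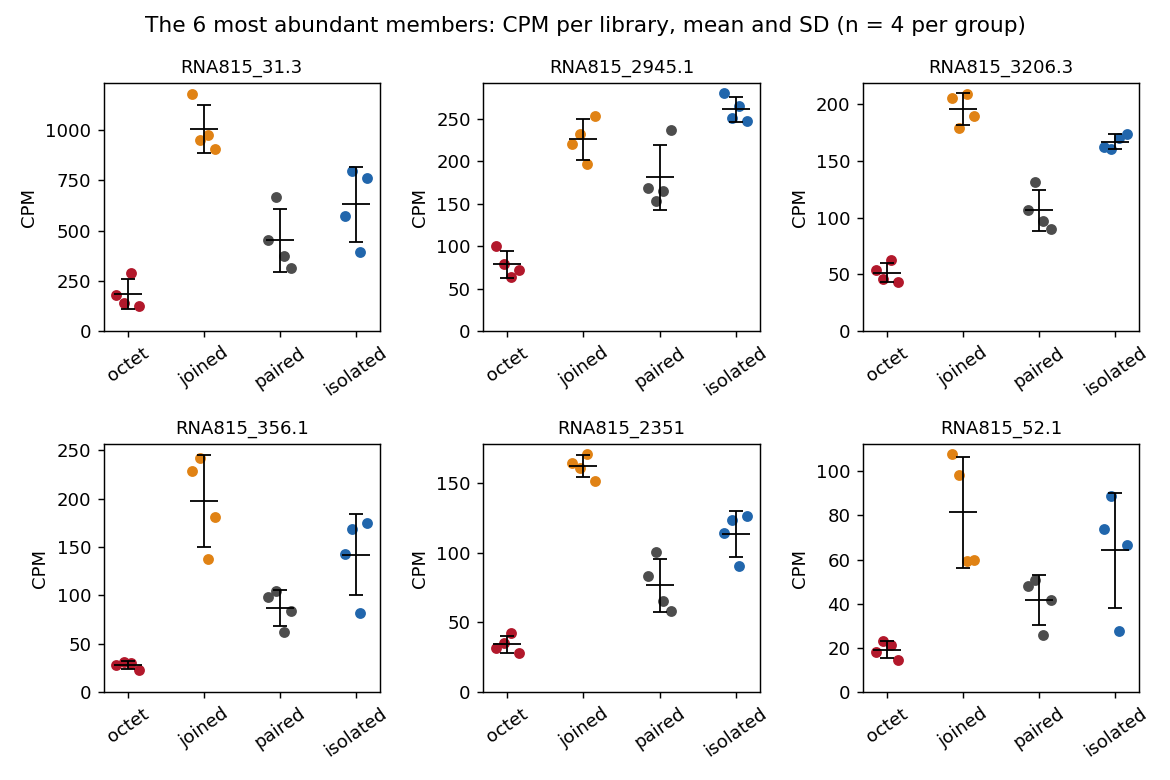
CPM in each library of the 6 most abundant members, by group, with points for libraries and bars for the mean and SD (n = 4 per group). The octet points lie below all others in each panel, and the joined group has the highest mean in all panels except that of RNA815_2945.1.

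The lowest octet to paired ratio was that of RNA815_16203, 0.211. Its levels were 1.49, 1.71, 2.25 and 0.714 CPM in the octet libraries, 18.1, 16.0, 12.1 and 9.03 CPM in the joined, 7.13, 12.6, 6.53 and 2.91 CPM in the paired and 10.4, 13.5, 3.06 and 8.35 CPM in the isolated libraries. Paired replicate 4 and isolated replicate 3 were far below the other libraries of their groups and only 1.29 times the highest octet library at the least. The same 2 libraries were lowest of their groups in RNA815_74, which had 8.87, 12.0, 11.4 and 4.43 CPM in the octet, 90.4, 97.9, 58.5 and 37.6 CPM in the joined, 36.2, 60.1, 27.7 and 15.6 CPM in the paired and 56.2, 82.1, 12.1 and 54.0 CPM in the isolated libraries. Isolated replicate 3 was then 1.01 times the highest octet library. RNA815_6111, in contrast, kept a wide gap (1.67 times), with 4.14, 5.14, 7.02 and 4.14 CPM in the octet, 37.8, 40.3, 44.8 and 53.7 CPM in the joined, 24.1, 29.4, 13.9 and 12.1 CPM in the paired and 20.7, 40.2, 11.7 and 34.5 CPM in the isolated libraries.

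Of the other members with ratios under 0.3, RNA815_1920 averaged 7.90 ± 3.51 CPM in octet, 54.7 ± 23.0 in joined, 28.8 ± 14.2 in paired and 32.3 ± 17.0 in isolated worms (SD, n = 4 each). RNA815_9620.1 averaged 1.55 ± 0.790 CPM in octet, 9.21 ± 2.68 in joined, 5.49 ± 1.45 in paired and 7.67 ± 3.55 in isolated worms. RNA815_16737 was uneven, with 0.852, 4.41, 3.03 and 1.01 CPM in the octet, 5.53, 8.63, 8.33 and 16.4 CPM in the joined, 8.74, 4.88, 8.11 and 15.5 CPM in the paired and 20.7, 10.8, 6.93 and 13.6 CPM in the isolated libraries, and its octet libraries alone spanned a wider proportional range than its other groups. Such low ratios were few: the paired mean was more than 3 times the octet mean in 16 of the 106 members, and 74 had an octet to paired ratio of at least 0.4. Wide gaps were also seen at ratios of at least 0.4, in RNA815_358.1 (mean 47.3 CPM, gap 1.65 times) and in the scarce RNA815_34700.1 (1.61 times). RNA815_358.1 had 15.7, 19.5, 22.0 and 21.4 CPM in the octet, 76.9, 68.1, 64.6 and 64.0 CPM in the joined, 54.2, 47.8, 36.3 and 42.4 CPM in the paired and 60.2, 58.8, 49.2 and 56.2 CPM in the isolated libraries, so that joined worms did not overlap with any other group. RNA815_34700.1 averaged 1.79 ± 0.317 CPM in octet, 5.78 ± 0.721 in joined, 4.42 ± 0.530 in paired and 4.16 ± 0.933 in isolated worms.

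Joined worms had lived as isolated worms until the last 24 h, so the comparison of joined with isolated worms addresses the first day with a partner. The selection set both groups above the octet values without comparing them with each other. Its first 2 conditions favour high values in both groups alike, and its last condition favours low isolated values. No member passed the adjusted threshold of 0.05 (0 of 106), as in the whole table (0% of 40265, limma-voom with Benjamini-Hochberg adjustment), and the smallest adjusted p of a member was 0.831. The 27 alternative settings, limma-trend among them, also gave 0 of 106. The members nevertheless lay mostly to 1 side. They moved together between pools of a group (described below), so the counts that follow are not counts of independent transcripts. A single shifted pool can move many members at once. Their log2 difference joined minus isolated was above 0 in 96 of 106 (90.6%), against 50.5% of all tested transcripts, with a median of 0.30 (range -0.61 to 0.79) against 0.00. An unadjusted p under 0.05 was reached by 20 members with higher joined levels (18.9%, against 2.98% of all tested) and by 1 member with lower joined levels (0.943%, against 2.91%). All 4 joined libraries lay above all 4 isolated libraries in 9 members (8.49%, against 3.31% of all tested). The 95% interval of a single member's difference reached 0.48 to either side of its estimate at the median.

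This tilt rested in part on isolated replicate 3. Without it the median over members was 0.12, 80 members were above 0, and 6 members had an unadjusted p under 0.05, 4 of them higher in joined worms. RNA815_80.1, which is left out of the CPM totals, held 14.7% of the reads of isolated replicate 3 and 19.9% to 21.5% in the other isolated libraries. Joined replicate 3 likewise had the lowest share of its group (13.4%) and the lowest median deviation of members from the group mean (-0.17). In the other groups it was the reverse: octet replicate 3 had the lowest share (9.17%) and the highest deviation (0.29). Paired replicate 4 had the highest share (20.4%) and the lowest deviation (-0.32). The part of RNA815_80.1 in the result was not tested. The largest positive differences were those of RNA815_6111 (log2 0.79 ± 0.27 SE), RNA815_1920 (0.78 ± 0.37) and RNA815_148.1 (0.72 ± 0.29). RNA815_148.1 had 90.1, 83.4, 45.6 and 62.3 CPM in the joined and 49.6, 64.3, 15.4 and 47.2 CPM in the isolated libraries, which overlapped, and 9.93, 13.9, 12.8 and 9.42 CPM in the octet and 33.7, 43.2, 23.3 and 29.3 CPM in the paired libraries. The most negative differences were those of RNA815_41178 (-0.61 ± 0.23), RNA815_16737 (-0.50 ± 0.36) and RNA815_2945.1 (-0.29 ± 0.16). RNA815_41178, whose difference had the unadjusted p under 0.05 on the lower side (adjusted p = 0.831, limma), had 2.94, 5.65, 5.92 and 5.30 CPM in the joined and 5.97, 9.30, 6.73 and 6.50 CPM in the isolated libraries. Every joined library was below every isolated library in it. Its octet libraries had 2.31, 2.17, 2.44 and 1.43 CPM and its paired libraries 5.37, 5.40, 3.80 and 3.57 CPM.

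**Figure D3:**
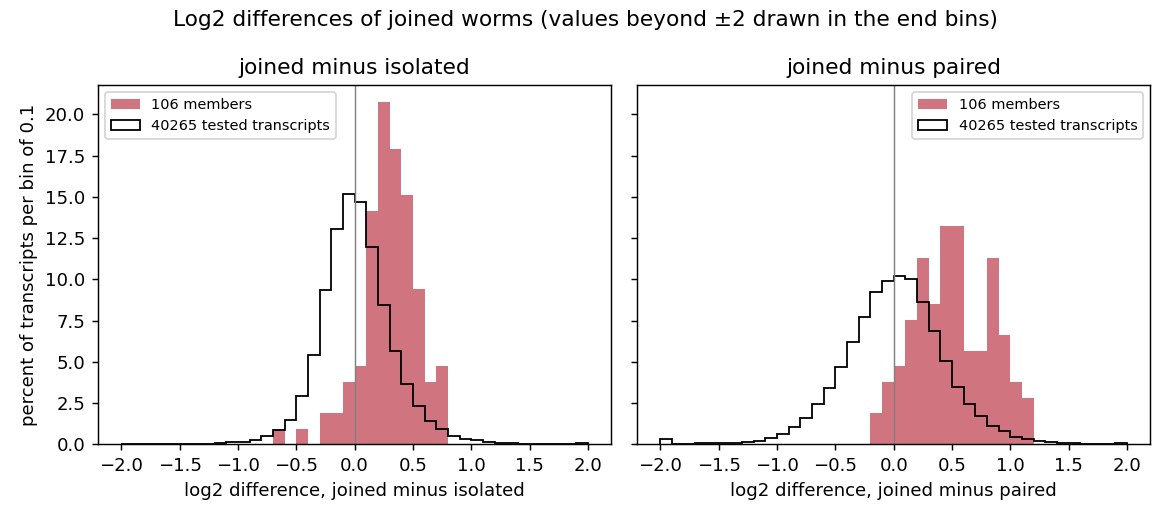
Percent of transcripts per bin of log2 difference (bin width 0.1; values past either end are drawn in the end bins) for joined minus isolated on the left and joined minus paired on the right, with filled bars for the 106 members and an outline for the 40265 tested transcripts. The members' medians, 0.30 and 0.50, lie right of those of all tested transcripts, 0.00 and 0.02.

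Joined and paired worms were both 2 together when RNA was taken, after 24 h in joined and 64 days in paired worms. Of the 106 members, 15 were higher in joined worms at an adjusted p under 0.05 (14.2%, against 1.33% of all tested transcripts), and 0 were lower (0%, against 3.25%; limma-voom, Benjamini-Hochberg adjustment over 40265 transcripts). The log2 difference joined minus paired was above 0 in 100 members (94.3%, against 51.7%), with a median of 0.50 (range -0.20 to 1.18) against 0.02. An unadjusted p under 0.05 was reached by 53 members, all of them higher in joined worms (50%, against 8.88%), and by 0 on the lower side (0%, against 11.3%). All joined libraries lay above all paired libraries in 31 members (29.2%, against 7.95%). Here too the members are not independent of each other, since they moved together between pools. The selection used both groups. It asked for a paired mean of at least 2 times the octet mean, which favours high paired values. It also asked for a mean of 4 CPM and for every other library to exceed the octet libraries, which favours high values in joined and paired worms alike. The tested transcripts as a whole were not selected on these conditions, and how much of the excess the selection gives was not tested.

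The count of 15 depended on single libraries. It was 5 without paired replicate 3, 7 without joined replicate 1, 9 without joined replicate 2 and 25 without isolated replicate 3, and in every one of these fits no member was lower in joined worms at the threshold. By level, 11 of the 27 members at 20 CPM or above were called (40.7%, against 2.6% of all tested transcripts at that level), 2 of the 16 between 10 and 20 CPM (12.5%, against 1.48%) and 2 of the 63 under 10 CPM (3.17%, against 1.23%). The median log2 difference joined minus paired was 0.84 at 20 CPM or above (-0.10 over all tested transcripts at that level), 0.53 between 10 and 20 CPM (-0.01) and 0.38 under 10 CPM (0.03). The paired to isolated ratio of the 15 ranged from 0.613 to 0.805, below the median of the whole set.

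RNA815_2351 had the smallest p, with a log2 difference of 1.02 ± 0.14 (SE, adjusted p = 0.000126, limma). RNA815_3206.3 followed with 0.80 ± 0.13 (adjusted p = 0.000461, limma) and RNA815_9710.2 with 0.90 ± 0.14 (adjusted p = 0.000527, limma). RNA815_9710.2 had 45.5, 41.3, 46.4 and 45.7 CPM in the joined and 26.4, 23.8, 24.3 and 16.0 CPM in the paired libraries, set apart by a wide margin, and 8.08, 10.6, 13.0 and 12.1 CPM in the octet and 31.7, 33.7, 37.7 and 31.6 CPM in the isolated libraries. The other abundant transcripts that were higher in joined worms were RNA815_356.1 (1.08 ± 0.20, adjusted p = 0.00263) and RNA815_31.3 (1.11 ± 0.22, adjusted p = 0.00511). These 5 passed the threshold under each of the 27 alternative settings run. RNA815_6111 (1.13 ± 0.28, adjusted p = 0.0196), RNA815_358.1 (0.52 ± 0.13, adjusted p = 0.0233) and RNA815_148.1 (1.01 ± 0.29, adjusted p = 0.0472) lost the threshold under 3, 5 and 13 of the 27 settings. The other 7 called were RNA815_3374, RNA815_7101, RNA815_59436, RNA815_14, RNA815_1085, RNA815_484.1 and RNA815_59285.2. The largest difference among them was that of RNA815_7101, 1.18, at 16.3, 13.5, 6.27 and 8.37 CPM in the joined and 4.84, 5.31, 3.87 and 2.89 CPM in the paired libraries.

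The 14 members whose paired mean exceeded their isolated mean ranged from 4.04 to 35.5 CPM in mean level. RNA815_13003 had the highest paired to isolated ratio, 1.46, with 4.70, 5.89, 5.32 and 5.50 CPM in the octet, 11.5, 8.25, 8.81 and 16.6 CPM in the joined, 12.6, 10.7, 9.96 and 14.1 CPM in the paired and 8.07, 10.3, 6.08 and 7.99 CPM in the isolated libraries. Its octet libraries lay below all others, as the selection required, but the lowest other library was only 1.03 times the highest octet library. Its joined, paired and isolated libraries overlapped. Its log2 difference joined minus paired of -0.20 ± 0.20 (SE, adjusted p = 0.605, limma) was the most negative in the set. RNA815_2913.2 (-0.13 ± 0.22) and RNA815_5670 (-0.08 ± 0.22) were the next members in that direction by p, and their 95% intervals ran from -0.59 to 0.33 and from -0.54 to 0.37. RNA815_66.1 was the most abundant of the 14, with 15.4 ± 5.72 CPM in octet, 51.6 ± 11.4 in joined, 38.1 ± 11.5 in paired and 36.8 ± 9.97 in isolated worms (SD, n = 4 each).

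Across the 106 transcripts there were 105 different numbers, and 71 transcripts had no suffix. RNA815_21129 was the only number with more than 1 member, RNA815_21129.1 and RNA815_21129.2. RNA815_21129.1 had 4.28, 2.79, 4.34 and 2.11 CPM in the octet, 21.0, 18.9, 10.9 and 6.60 CPM in the joined, 12.9, 17.0, 7.39 and 7.29 CPM in the paired and 12.1, 18.9, 7.20 and 10.4 CPM in the isolated libraries. RNA815_21129.2 averaged 2.61 ± 1.01 CPM in octet, 9.13 ± 3.26 in joined, 5.74 ± 2.59 in paired and 7.29 ± 2.69 in isolated worms (SD, n = 4 each). Both were highest in joined replicate 1 among the joined libraries and lowest in isolated replicate 3 among the isolated ones. RSEM, which made the counts, divides reads that fit several transcripts by estimation, so values of transcripts that share a number are not independent of each other.

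Another 86 transcripts, outside the set, shared a number with a member, and 48 of these (25 numbers) were among those tested. The octet group had the lowest mean in 43 of the 48, against 53.4% of all tested transcripts. The log2 difference octet minus paired was negative in 43, against 49.8% of all tested transcripts, with a median of -0.76, and it was -1 or lower in 16, against 2.84%. All octet libraries lay below all others in 11, against 3% of all tested transcripts. In 5 numbers, RNA815_31, RNA815_71, RNA815_252, RNA815_2945 and RNA815_3206, another transcript reached a mean of 100 CPM or more, and these were chosen for description after their values were seen. RNA815_31.1 was by far the most abundant, with 1513 ± 1042 CPM in octet, 9862 ± 3675 in joined, 4361 ± 2610 in paired and 6819 ± 2733 in isolated worms (SD, n = 4 each). It shared the order of its partner RNA815_31.3 but was outside the set because octet replicate 3 (3008 CPM) was above paired replicate 4 (1344 CPM).

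RNA815_2945 was the exception among these 5 numbers in the octet to paired ratios of its other transcripts. Its member RNA815_2945.1 was low in octet worms, while RNA815_2945.2, RNA815_2945.3, RNA815_2945.4 and RNA815_2945.5 had octet to paired ratios of 1.00, 1.15, 1.34 and 1.36. RNA815_2945.2 averaged 297 ± 44.6 CPM in octet, 217 ± 18.8 in joined, 298 ± 49.7 in paired and 264 ± 17.6 in isolated worms (SD, n = 4 each). As a share of all reads of the number, RNA815_2945.1 held 13.5% ± 1.01 in octet, 38.5% ± 1.08 in joined, 27.8% ± 1.78 in paired and 36.5% ± 1.97 in isolated worms. The octet shares (12.3% to 14.5%) and paired shares (25.2% to 29.3%) overlapped with no other group, and the joined (37.6% to 40.0%) and isolated shares (33.9% to 38.6%) overlapped each other. The share of RNA815_2945.2 was 51.2% ± 1.72 in octet, 37.1% ± 1.09 in joined, 46.0% ± 1.24 in paired and 36.9% ± 1.53 in isolated worms. The low octet level of RNA815_2945.1 was therefore a difference within the number as well as between libraries, and the shares do not depend on the scaling of libraries. In RNA815_3206 the shares also differed, though less. There RNA815_3206.1 held 60.8% ± 1.56 in octet, 53.9% ± 2.06 in joined, 56.3% ± 0.45 in paired and 54.4% ± 0.71 in isolated worms. The share of member RNA815_3206.3 was 14.9% ± 0.70 in octet and 17.9% ± 1.81 in paired worms, with overlap. The mean shares of RNA815_31.3 and RNA815_71.2 were instead highest in octet worms, and that of RNA815_252.2 was lowest.

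**Figure D4:**
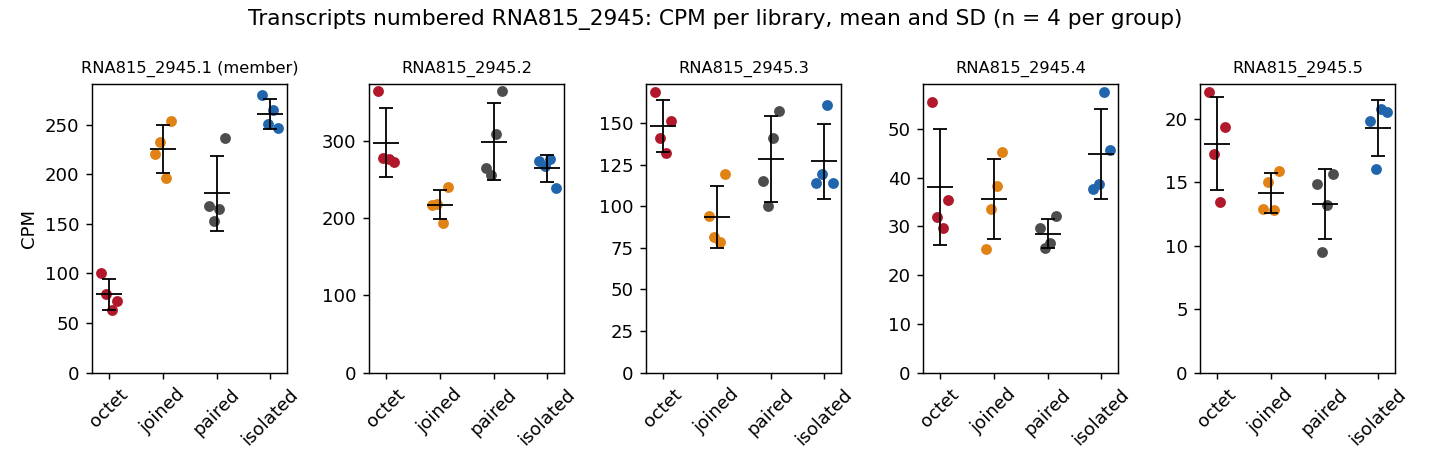
CPM in each library of the 5 transcripts numbered RNA815_2945, by group, with points for libraries and bars for the mean and SD (n = 4 per group). Octet libraries are lowest in the panel of RNA815_2945.1. In the panels of RNA815_2945.2 and RNA815_2945.3 they lie above all joined libraries and overlap the paired and isolated ones, and in those of RNA815_2945.4 and RNA815_2945.5 they overlap other groups, with the highest library of RNA815_2945.3 and RNA815_2945.5 an octet one.

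The members moved together between pools of the same group. After each group's mean was taken off, the first principal component of the members' log2 levels held 63.1% of the remaining variance, against 37.5% over all transcripts with a mean of 4 CPM or more, and 103 of the 106 members had the same sign on it. Isolated replicate 3 was the lowest, with 98 of 106 members below their group mean and a median deviation of -0.53 on the log2 scale. Octet replicate 4 (95 members below, median -0.39) and paired replicate 4 (87 below, median -0.32) were next. The highest were paired replicate 2 and isolated replicate 2 (median 0.32 each) and octet replicate 3 (0.29). The median deviation of all transcripts with a mean of 4 CPM or more stayed between -0.06 and 0.07 in every library. The median coefficient of variation of a member was 29.6% in octet, 23.1% in joined, 26.6% in paired and 27.9% in isolated worms. Over all transcripts with a mean of 4 CPM or more it was 17.5%, 15.4%, 18.5% and 16.1%. These were not matched to the members by level: 63 of the 106 members were under 10 CPM, against 10200 of the 23787 transcripts. How much low counts add to the members' variation was not tested. The library medians thus ran from -0.53 to 0.32 in the isolated, -0.17 to 0.23 in the joined and -0.32 to 0.32 in the paired group. The median log2 differences were 0.30 for joined minus isolated and 0.50 for joined minus paired. Those compare groups of 4 libraries, whereas the spans are of single libraries. What differed between the pools of a group was not tested.

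**Figure D5:**
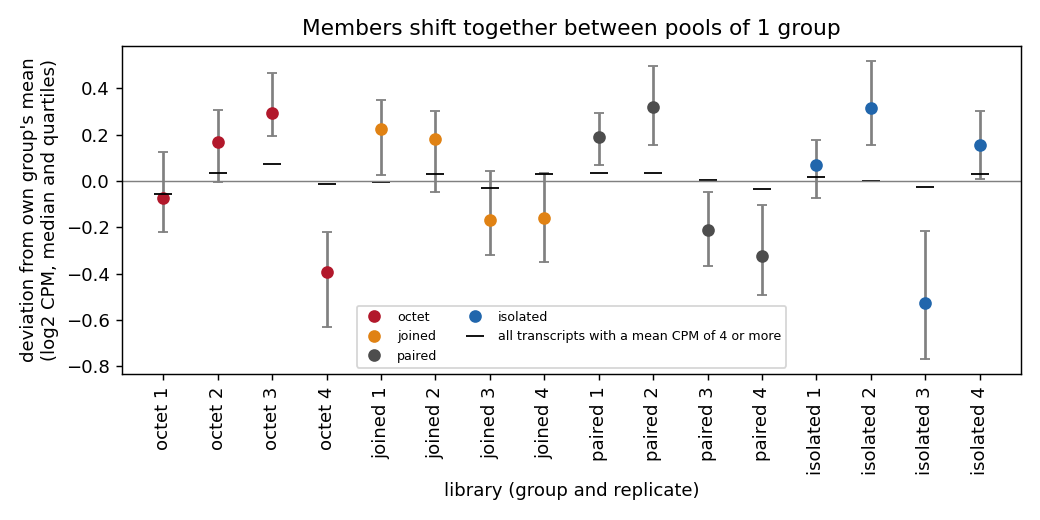
Deviation of the members from their own group's mean (log2 CPM) in each library, with points for the median and bars for the quartiles of 106 members, and short black lines for the median of all transcripts with a mean of 4 CPM or more. Isolated replicate 3 (-0.53), octet replicate 4 (-0.39) and paired replicate 4 (-0.32) are the lowest, while the black lines stay near 0.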

How the data were processed

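Pools of whole worms gave RNA by TRIzol extraction, read as single ends of 100 bp, per the labels' protocols. The submitters' processing notes name Bowtie 0.12.7 and RSEM 1.1.19 for alignment and quantification. The authors deposited estimated counts for each transcript, with decimal commas and no scaling for depth, and 23.8% of cells are not whole. The authors' deposited table was 1 table of all 16 libraries, whose columns were matched to libraries by the header quoted in each label.

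The members, their rule and the lists described were chosen with earlier results of these data known. CPM was computed over column totals without RNA815_80.1. For tests, counts were rounded, and a transcript needed 1.26 CPM in at least 4 libraries and 15 reads in total, which left 40265. TMM factors (trims of 30% and 5%) and limma-voom (pseudocount 0.5, limma version 3.58.1, R 4.3.3) were applied to all 16 libraries with 4 groups, giving 12 residual and 10.3 prior degrees of freedom. Tests were two-sided, with Benjamini-Hochberg adjustment over all tested transcripts and a threshold of 0.05. The filter, TMM scaling and fit were also run on simulated counts of independent transcripts, with changes in joined libraries only. The selection and the shared movement of members between pools were not simulated, and no result here rests on that run. Intervals are 95% intervals of the fit and cover the spread between pools.

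Named members were the 6 with the lowest octet to paired ratio, the 6 most abundant, the 4 with the widest gap to the octet libraries, the 3 most positive and 3 most negative for joined minus isolated, the 3 with the smallest p in each direction for joined minus paired, and those sharing a number. RNA815_66.1, RNA815_7101, RNA815_6699, the other called members, and the numbers with abundant partners were named after their values were seen.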

Additional observations from a re-analysis of the deposited data

Results flagged for a closer look

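In RNA815_9710.2, joined replicate 2 had 41.3 CPM, apart from the other joined libraries at 45.5 to 46.4 CPM. Its distance to the nearest of them, divided by the range of the 4 libraries, was 0.83, just past Dixon's 95% critical value for 4 values. It was the only such value among 92 groups of 4 libraries checked, and chance alone gives about 1 in 20. The transcript was higher in joined than in paired worms under every setting run, and the library remained far above all paired libraries, of which the highest had 26.4 CPM.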

How the results depend on the processing

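The number of transcripts meeting the selection, 106, was 58 when RNA815_80.1 stayed in the totals, 53 with TMM, 67 with upper-quartile and 50 with median-ratio scaling. It was 194 at a minimum of 2 CPM, 58 at 8 CPM, 32 and 265 at octet to paired limits of 0.4 and 0.6, and 64 at a paired to isolated limit of 0.8. Leaving out 1 library gave 78 to 547, the highest without octet replicate 3, then 358 without paired replicate 4, 203 without isolated replicate 3, and 180 each without octet replicate 2 and paired replicate 3. With paired replicate 4 and isolated replicate 3 both left out, an alternative chosen after seeing the data, 658 met it. Members called higher in joined than in paired worms, 15, were 5 to 25 with 1 library left out and 38 with the replicate number as a block (replicate block). The labels do not say that a replicate number marks a shared batch. The column headers count the libraries replicate by replicate, with the 4 groups in turn within each replicate number. Of 24 same-numbered pairs of libraries, 13 correlated above 0.1 (range -0.27 to 0.61), short of all pairs. The main fit did not treat the numbers as pairing the samples, and whether they mark a block was not tested. A library correlated best with its own number in 22 of 48 checks, where even matching gives 12. Each of the 24 pairs entered the checks from both sides, so the checks are not independent of each other. The member medians for octet minus isolated and octet minus joined were -0.93 and -1.16 with limma-trend, which adds 2 CPM. Calls of members for joined against isolated stayed at 0 under all 27 settings. Over all tested transcripts, 3 of 37387 were called when only the 8 libraries of these groups were fitted.

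Of 44 differences of named members under 27 settings each (1188 values), 1131 kept direction and side of the threshold, 21 lost and 7 gained the threshold, and 29 changed sign, all in differences that were not called. With both libraries above left out, joined minus isolated turned to -0.12 in RNA815_9620.1, -0.022 in RNA815_52.1, -0.11 in RNA815_21129.1 and -0.011 in RNA815_21129.2. Joined minus paired turned to 0.0065 in RNA815_5670 without scaling. In RNA815_16737 it was -0.026 without a filter, -0.0098 with a stricter filter and -0.027 with limma-trend, and in RNA815_41178 -0.010 without a filter and -0.042 with both libraries left out. With 1 library left out, joined minus isolated ran from -0.12 to 0.53 in RNA815_9620.1, -0.020 to 0.52 in RNA815_52.1, -0.019 to 0.24 in RNA815_5670, -0.12 to 0.41 in RNA815_21129.1 and -0.0097 to 0.45 in RNA815_21129.2. Joined minus paired ran from -0.28 to 0.27 in RNA815_16737, -0.11 to 0.23 in RNA815_41178, -0.28 to 0.031 in RNA815_2913.2, -0.23 to 0.046 in RNA815_5670 and -0.016 to 0.52 in RNA815_21129.1. The causes were not tested. Estimated counts went down to 4 reads in a library, and 63 members were under 10 CPM; the effect of depth was not tested.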

Other observations

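Low assembly numbers were common in the set. The number before the suffix was under 1000 in 26 of the 106 members (24.5%), against 5.07% of all transcripts with a mean of 4 CPM or more. Abundant transcripts had low numbers more often in general, so the shares were also taken by level. They were 3 of 63 members (4.76%, against 1.5%) under 10 CPM, 6 of 16 (37.5%, against 3.19%) from 10 to 20 CPM, and 17 of 27 (63.0%, against 11.2%) at 20 CPM or above. What the numbers stand for is not given in the sources used here.

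The estimated counts of the members were somewhat more often fractional than others, with 49.1% of their cells not whole against 41.7% over all transcripts with a mean of 4 CPM or more.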
